A study of Mus musculus with 3 samples.

Results

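The genes described here were 9 apolipoprotein genes, Apoa1, Apoa2, Apoa4, Apoa5, Apob, Apoc2, Apoc3, Apoe and Apom, chosen by name from the 32285 genes counted in single nuclei of mouse liver. Nuclei came from frozen liver of 3 C57BL/6 J mice, with 1 library per mouse. The ND mouse was a normal male on a normal diet. The STZ-HFHC mice, STZ-HFHC 1 (the first) and STZ-HFHC 2 (the second), stood for MASH-related liver fibrosis, produced with streptozocin (STZ, 0.2 mg), a toxin of the insulin-producing islet cells, followed by a diet rich in fat and cholesterol (HFHC). ND received neither, and no library with STZ alone or the diet alone was analysed here. The ages of these mice at sampling, and the meaning of the codes in their labels that begin with 2nd and 3rd, were not given in the sources used here. The comparison asked how these genes differed between the livers and in which nuclei their RNA was found.

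Apolipoproteins are the protein coats of lipoproteins, the particles that carry triglyceride and cholesterol in blood, and the liver is a main source of them. Apob is the structural protein of very-low-density and low-density lipoprotein. Apoa1 and Apoa2 are the main proteins of high-density lipoprotein (HDL), and Apom, a carrier of sphingosine-1-phosphate, rides on HDL too. Apoc2 activates lipoprotein lipase, the enzyme that breaks down triglyceride in the particles, Apoc3 restrains it and Apoa5 promotes it. Apoe is the ligand by which remnant particles are taken up, and macrophages are known to make it as well as hepatocytes. Apoa4 rides on triglyceride-rich particles and HDL. A nucleus holds newly made RNA, whereas most finished messenger RNA lies in the cytoplasm, and RNA set free from broken cells can enter any droplet.

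After filtering, 8494, 8921 and 10921 nuclei of ND, STZ-HFHC 1 and STZ-HFHC 2 remained, with 42715797, 44350401 and 55632923 unique molecular identifiers (UMIs), respectively. Levels are UMIs summed over the nuclei of a class, scaled to a total of 1000000 UMIs for that class and library (CPM), and ranges in parentheses are exact 95% intervals that cover counting error only. Between 59 and 62 barcodes of each library occurred in another library. Free hepatocyte RNA was abundant. The summed level of 19 reference genes of hepatocytes that are not apolipoproteins, such as Alb and Ttr, was 11077, 7672 and 6384 CPM in hepatocyte-like nuclei of ND, STZ-HFHC 1 and STZ-HFHC 2, and 11393, 5973 and 5486 CPM in their lymphocyte-like nuclei (T or NK cell-like and B cell-like together), which are not known to make these proteins. The hepatocyte markers did not set the hepatocyte-like nuclei of ND apart, at 20342 CPM beside 19331 CPM in lymphocyte-like nuclei. These clusters were therefore recognised by small excesses of some hepatocyte and zone markers within a library. Hepatocyte-like clusters 1 and 15 held ND nuclei and clusters 2, 3 and 14 held STZ-HFHC nuclei, so different clusters stood for the class in the 2 conditions. A marker counted when it was at least 1.2 times its level in the pooled clusters with markers of other cell types. Of 28 markers, 11 and 12 counted in clusters 1 and 15, and 16, 15 and 14 in clusters 2, 3 and 14. The rule asked for at least 3.

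The genes are placed here by the GENCODE M21 annotation of GRCm38. Apoa1 (chr9:46228580-46230466), Apoc3 (chr9:46232933-46235636), Apoa4 (chr9:46240696-46243459) and Apoa5 (chr9:46268633-46271919) lie within 43340 bases of chromosome 9, where Apoc3 alone is on the minus strand. Apoc2 (chr7:19671579-19677941) and Apoe (chr7:19696109-19699188) lie on the minus strand of chromosome 7, within 27610 bases. Apoa2 (chr1:171225054-171226379), Apob (chr12:7977648-8016835) and Apom (chr17:35128997-35132050) stand alone. Apob is the longest of the 9 genes, with 13934 exonic and 25254 intronic bases. Apoc2 overlaps a gene model on the same strand, Gm44805, which was not among the counted genes, so the reads of both cannot be told apart. Apoa4 and Apoa5 overlap antisense models, of which Gm10680 had 0 to 3 UMIs and Gm47544 had 3 to 11 UMIs in the hepatocyte-like nuclei of a library.

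The stretches directly upstream of 4 genes are shown. Apoa1 and Apoa4 are neighbours whose log2 ratios between the livers had opposite signs, and Apob and Apoe had the lowest and the highest ratio between mitochondria-led and hepatocyte-like nuclei in ND. The sequences come from RefSeq (GRCm38.p6) and end at the base before the annotated gene. RefSeq places the starts of Apoa1 (chr9:46228630), Apoa4 (chr9:46240844) and Apob (chr12:7977677) inside the annotated genes. Distances given here run from the annotated gene and not from the RefSeq start. Of the 9 genes, 8 had an entry, and Apoc3 had none. Capitals mark CAAAGTNCA, a core of sites of the liver factor HNF4A, AGGTCA, a half-site of nuclear receptors, and TATAAA, the TATA box, all searched on both strands, and no motif found overlaps another in these stretches.
Apoa1 (chr9:46228380-46228579, plus strand): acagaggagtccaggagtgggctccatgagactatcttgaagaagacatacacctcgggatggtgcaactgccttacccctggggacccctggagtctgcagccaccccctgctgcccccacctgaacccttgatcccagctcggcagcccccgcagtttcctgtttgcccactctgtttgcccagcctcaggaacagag
Apoa4 (chr9:46240594-46240695, plus strand): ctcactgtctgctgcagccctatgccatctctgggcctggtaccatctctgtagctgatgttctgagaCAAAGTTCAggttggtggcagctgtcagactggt
Apoe (chr7:19699189-19699388, minus strand): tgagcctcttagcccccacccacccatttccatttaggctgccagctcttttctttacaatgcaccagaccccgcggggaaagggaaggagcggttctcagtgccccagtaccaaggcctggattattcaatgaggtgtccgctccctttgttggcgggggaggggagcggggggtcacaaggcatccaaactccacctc
Apob (chr12:7977448-7977647, plus strand): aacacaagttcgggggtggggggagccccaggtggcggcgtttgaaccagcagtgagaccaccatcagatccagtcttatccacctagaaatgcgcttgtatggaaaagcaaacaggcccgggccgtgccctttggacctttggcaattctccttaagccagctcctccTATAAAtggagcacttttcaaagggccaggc
The HNF4A core of Apoa4 began 34 bases before the gene, and its letters were in 1.19% of the 32851 upstream windows of 250 bases in the table. The TATA box of Apob began 31 bases before the gene, and its letters were in 12.4% of all windows. Apoe also had these letters in its window of 250 bases, outside the 200 bases shown. The half-site, found in 14.0% of all windows, was not among the letters of these 4 stretches. A match describes letters only.

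In hepatocyte-like nuclei, the HDL genes Apoa1, Apoa2 and Apom and the remnant ligand Apoe were lower in both STZ-HFHC mice than in the ND mouse by at least 2-fold, and Apoa4 alone of the 9 genes had a higher value in both. With 1 ND library there is no test. A gene with at least 50 UMIs was called when its log2 ratio to ND was at least 1 in size and lay on one side of ND in both mice of the model. By this rule 4 of the 9 genes were lower and 0 were higher, beside 4.82% lower and 8.56% higher among the 14743 genes with enough UMIs. The median log2 ratio of the 9 genes was −0.93, beside 0.10 over all these genes. It was −1.24 over the 19 reference genes, of which 9 were lower, so the apolipoprotein genes lay under most genes and not under other genes for secreted liver proteins.

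Apoa1 was at 511 CPM (501–520.1) in ND, 124 CPM (119.9–128) in the first and 113 CPM (109–116) in the second STZ-HFHC mouse. The STZ-HFHC values lay close together and far under ND, a log2 ratio of −2.11 ± 0.10 (SD, n = 2). Apoa2 was at 659, 225 and 158 CPM in the 3 libraries, in the same order, a log2 ratio of −1.80 ± 0.36 (SD, n = 2). Apom was sparse, with 201, 115 and 84 UMIs, or 9.19, 4.37 and 2.39 CPM, and a log2 ratio of −1.51 ± 0.62 (SD, n = 2). STZ-HFHC 1 was close to the limit for Apom, at −1.07, and the gene was not called at a clustering resolution of 0.5 (−0.94), with the mean CPM per nucleus (−0.99) or with 1 added to each CPM (−0.92). All 3 HDL genes were highest in ND and lowest in STZ-HFHC 2.

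Apoe was at 622 CPM (612–633) in ND, 279 CPM (272–285) in the first and 228 CPM (223–233) in the second STZ-HFHC mouse, a log2 ratio of −1.30 ± 0.20 (SD, n = 2). Apob was at 2048, 972 and 1194 CPM, with log2 ratios of −1.07 and −0.78. Both STZ-HFHC values of Apob were under ND, but only STZ-HFHC 1 was past the limit, so Apob was not called. Unlike the HDL genes and Apoe, Apob was lower in STZ-HFHC 1 than in STZ-HFHC 2.

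The genes that act on lipolysis were not called, and each was under ND in both mice. Apoa5, which promotes lipolysis, was at 499, 233 and 296 CPM in ND, STZ-HFHC 1 and STZ-HFHC 2, with log2 ratios of −1.10 and −0.75. Apoc3, its inhibitor, was at 116, 76.0 and 51.7 CPM, with log2 ratios of −0.61 and −1.17. Apoc2, the activator, was at 80.3, 62.0 and 45.8 CPM, with log2 ratios of −0.37 and −0.81. Apoa5 shared with Apob the lower value in STZ-HFHC 1, whereas Apoc2 and Apoc3 were lowest in STZ-HFHC 2.

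Apoa4 was at 26.2 CPM (24.1–28.4) in ND, 45.5 CPM (43.0–48.2) in the first and 38.7 CPM (36.7–40.8) in the second STZ-HFHC mouse. The intervals of both STZ-HFHC mice lay above that of ND, and the log2 ratio of 0.68 ± 0.17 (SD, n = 2) was under the limit. Its neighbours on chromosome 9, Apoa1, Apoc3 and Apoa5, were all under ND in both mice.

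**Figure D1:**
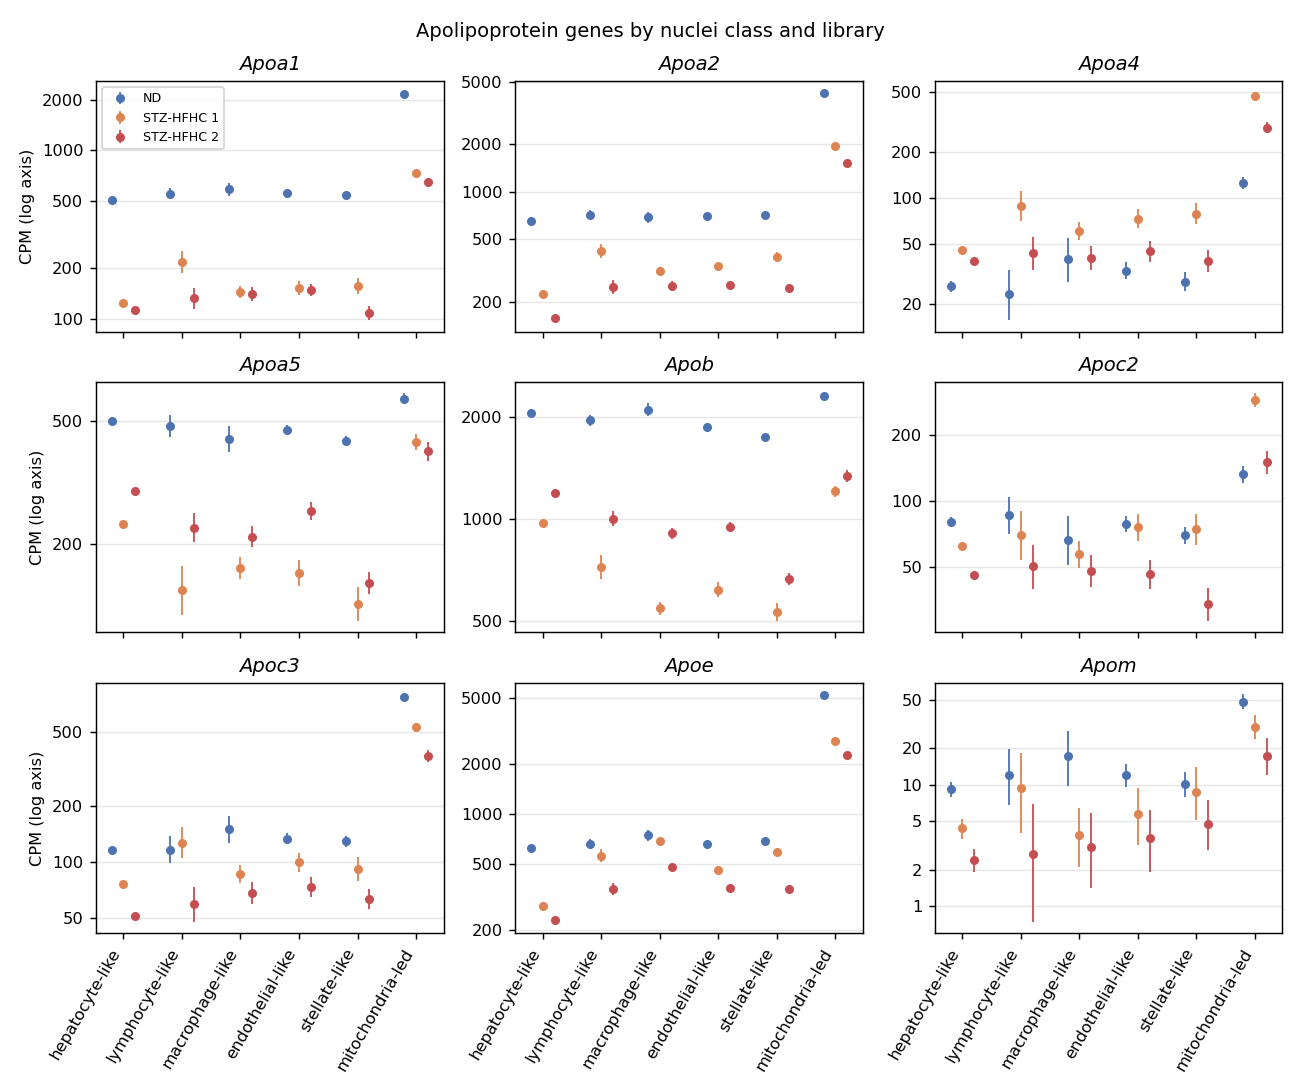
Level of each apolipoprotein gene in CPM (log axis, with its own range per panel) in 6 sets of nuclei, with 1 point per library (ND blue, STZ-HFHC 1 orange, STZ-HFHC 2 red) and exact Poisson 95% intervals as bars. For Apoe in ND the 5 classes lie between 622 and 742 CPM and the mitochondria-led clusters at 5205 CPM.

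Most of these differences had the same sign in nuclei that are not known to express the genes. In lymphocyte-like nuclei the log2 ratio of STZ-HFHC to ND was −1.70 ± 0.50 (SD, n = 2) for Apoa1, −1.14 ± 0.53 for Apoa2, −1.20 ± 0.33 for Apob, −1.43 ± 0.47 for Apoa5 and −0.56 ± 0.47 for Apoe. Apoa1 and Apoa5 were called lower there, and Apoa1 was called lower in every class. Apoa4 was at 23.3 CPM (15.6–33.5) in lymphocyte-like nuclei of ND, 88.9 CPM (70.1–111) of the first and 43.4 CPM (33.4–55.4) of the second STZ-HFHC mouse. The interval of STZ-HFHC 1 lay above that of ND, and the interval of STZ-HFHC 2 met it at its edge. The median over the genes with enough UMIs was −0.85 in lymphocyte-like and −1.09 in macrophage-like nuclei (8 genes, without Apom), and −1.14 and −1.22 with Apom. Over all 9 genes it was −1.20 in endothelial-like and −0.75 in stellate-like nuclei, beside −0.93 in hepatocyte-like nuclei. The median over the reference genes was −1.13 in lymphocyte-like nuclei. How much of the difference in hepatocyte-like nuclei came with free RNA was not tested, and the mouse, the library and the condition cannot be told apart for ND.

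**Figure D2:**
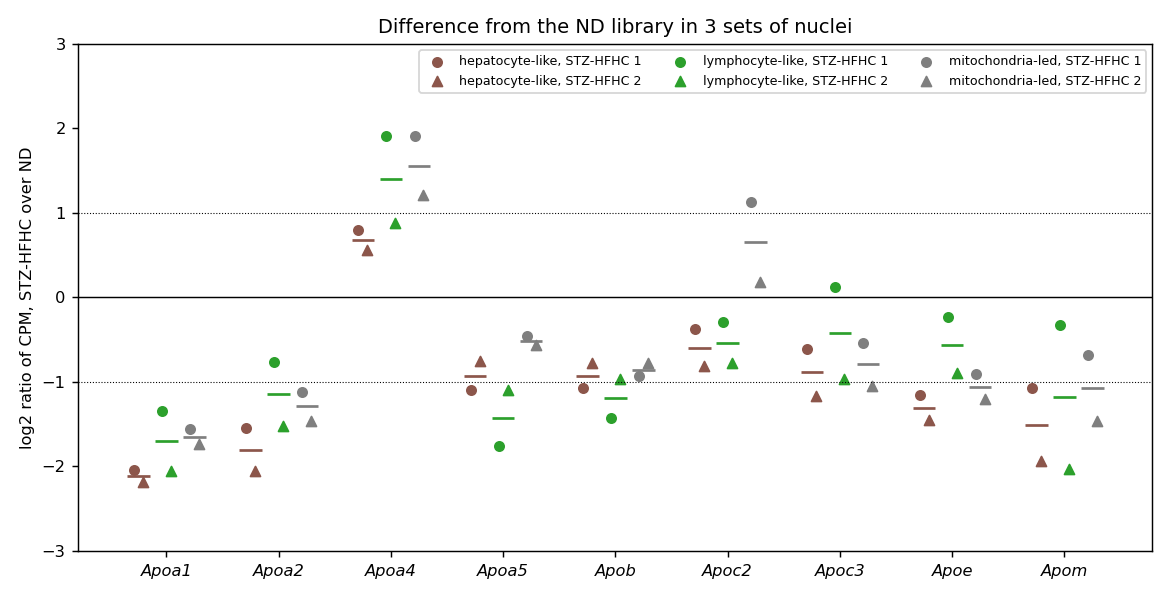
Log2 ratio of CPM to the ND library for each gene in hepatocyte-like (brown), lymphocyte-like (green) and mitochondria-led (grey) nuclei, with a circle for STZ-HFHC 1, a triangle for STZ-HFHC 2, a bar at their mean and dotted lines at −1 and 1. Apoa1 lies under −1 and Apoa4 above 0 in all 3 sets and both mice.

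Within ND, the apolipoprotein genes were about as abundant in lymphocyte-like as in hepatocyte-like nuclei. The level in hepatocyte-like over that in lymphocyte-like nuclei was 0.946 (0.882–1.02) for Apoe, 0.922 (0.853–0.997) for Apoa1 and 1.05 (1.01–1.10) for Apob. In the STZ-HFHC libraries the genes parted. Apob was above 1, with ratios of 1.35 (1.24–1.46) and 1.19 (1.13–1.26) in STZ-HFHC 1 and STZ-HFHC 2, and so was Apoa5, with ratios of 1.64 (1.37–1.98) and 1.31 (1.18–1.47). Apoe was under 1, with ratios of 0.497 (0.453–0.546) and 0.646 (0.591–0.707), and so was Apoa2, with ratios of 0.532 (0.478–0.593) and 0.631 (0.568–0.703). Apob and Apoa5 were the only genes of the 9 above 1 in both mice. Single reference genes ran from 0.690 to 1.52 in STZ-HFHC 1 and from 0.706 to 1.38 in STZ-HFHC 2. Apoe and Apoa2 lay under that range in both mice and Apoa5 above it in STZ-HFHC 1, whereas Apob in both mice and Apoa5 in STZ-HFHC 2 lay within it. The hepatocyte-like nuclei of these libraries were also deeper, with medians of 7906 and 6539.5 UMIs beside 1308 and 1513 UMIs, and the part of depth in these ratios was not tested. Macrophage markers summed to 242 and 204 CPM in these hepatocyte-like nuclei and to 913 and 773 CPM in the lymphocyte-like nuclei. The part of macrophage RNA in the ratios of Apoe was not tested either.

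The share of nuclei with a UMI was compared after each nucleus was thinned to 1000 UMIs, with Clopper-Pearson intervals. In ND, Apob was found in 84.0% (82.9–85.1) of hepatocyte-like and 88.0% (80.0–93.6) of T or NK cell-like nuclei, and Apoe in 48.0% (46.5–49.5) and 50% (39.8–60.2). Unthinned, these shares were 97.4% and 92.7% for Apob and 89.9% and 90.3% for Apoe, at median depths of 4109 and 3279 UMIs. The share in T or NK cell-like nuclei is background, and after thinning neither gene exceeded it in ND. In STZ-HFHC 2, Apob was found in 66.2% (64.8–67.5) of hepatocyte-like and 61.5% (55.8–67.1) of T or NK cell-like nuclei, and Apoe in 21.0% (19.8–22.2) and 30.8% (25.6–36.3). Thinning left out 170 hepatocyte-like and 24 T or NK cell-like nuclei of ND, and 32 and 69 of STZ-HFHC 2.

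A pair of clusters rich in RNA of the mitochondrial genome, which is not transcribed in the nucleus, held more of each apolipoprotein gene than any class of the same library. Cluster 12 held 886 ND nuclei, and cluster 8 held 965 nuclei of the first and 575 of the second STZ-HFHC mouse. They were given no cell type, and beside mitochondrial genes their leading genes included Apoe in cluster 12 and Hbb-bs and Apoa4 in cluster 8. Apoe was at 5205, 2769 and 2254 CPM there in ND, STZ-HFHC 1 and STZ-HFHC 2, which was 8.36 (8.18–8.55), 9.94 (9.62–10.3) and 9.88 (9.52–10.3) times the level in hepatocyte-like nuclei. Apoa2 had folds of 6.37, 8.61 and 9.60, Apoa4 of 4.78, 10.3 and 7.51 and Apoc3 of 6.63, 6.94 and 7.21. Apom had folds of 5.29, 6.91 and 7.32, Apoa1 of 4.24, 5.94 and 5.76 and Apoc2 of 1.65, 4.66 and 3.28.

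Apob and Apoa5 had the lowest folds of the 9 genes in each library. They were 1.12, 1.24 and 1.12 for Apob and 1.18, 1.84 and 1.35 for Apoa5, and these were also the genes above 1 in the ratio of hepatocyte-like to lymphocyte-like nuclei. The median of the 9 genes was 4.78, 6.91 and 7.21, beside 2.12, 2.45 and 1.75 for the reference genes and 0.985, 1.14 and 1.09 for all genes.

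**Figure D3:**
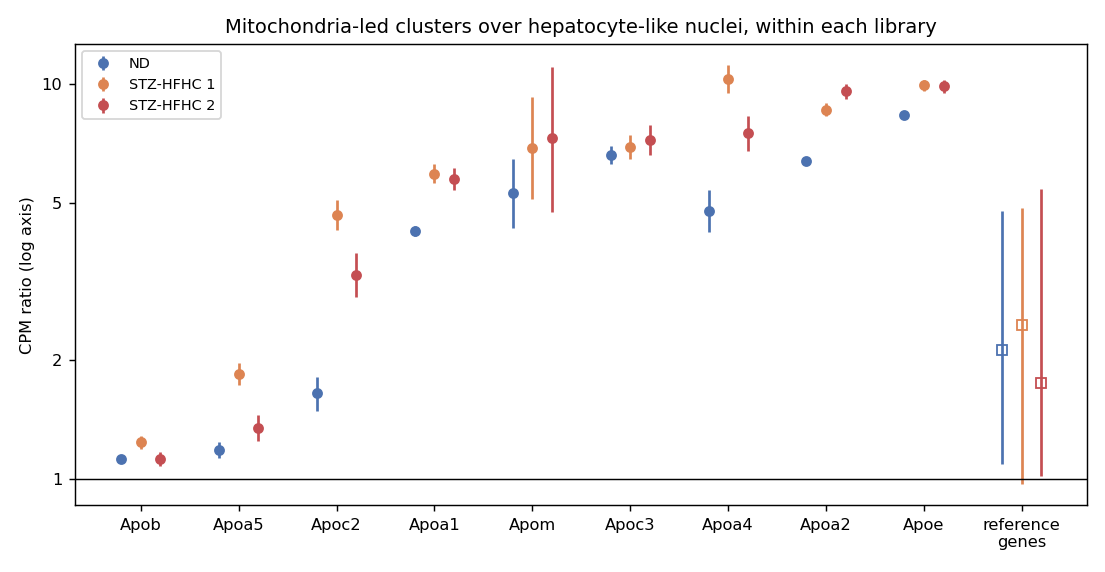
Level in the mitochondria-led clusters over that in hepatocyte-like nuclei of the same library (log axis), with exact 95% counting intervals as bars; the open squares and their bars give the median and the range of the 19 reference genes. Apob and Apoa5 lie between 1.12 and 1.84, and the other genes lie above the reference median of their library apart from Apoc2 in ND.

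Between the livers, the rule of size called 2 of the 9 genes lower in the mitochondria-led clusters, Apoa1 with a log2 ratio of −1.65 ± 0.13 (SD, n = 2) and Apoa2 with −1.29 ± 0.25, and 1 higher, Apoa4. Among 10534 genes with enough UMIs, 2.71% were lower and 11.1% higher by the same rule, and the median was −0.85 over the 9 genes and 0.25 over all. Apoa4 was at 125, 470.1 and 291 CPM in ND, STZ-HFHC 1 and STZ-HFHC 2, a log2 ratio of 1.56 ± 0.49 (SD, n = 2). Apoc2 was at 132, 289 and 150.3 CPM, above ND in both mice, whereas in hepatocyte-like nuclei it was under ND in both. Macrophage markers summed to 194, 921 and 507 CPM in these clusters of the 3 libraries, endothelial markers to 354, 971 and 676 CPM, stellate or fibroblast markers to 137, 463 and 297 CPM and T or NK cell markers to 48.4, 221 and 285 CPM. All were higher in both STZ-HFHC mice than in ND, and their part in the values of Apoc2 and Apoa4 was not tested.

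Apoe was weighed against free hepatocyte RNA in the macrophage-like nuclei. It was at 742 CPM (688–799.9) there in ND, 686 CPM (659–713) in the first and 477 CPM (452–502) in the second STZ-HFHC mouse, beside 658, 560.5 and 353 CPM in lymphocyte-like nuclei. Cluster 19 held 218 of the 235 macrophage-like nuclei of ND, and cluster 4 held nearly all of the STZ-HFHC mice, so different clusters stood for the class. The level that free RNA would give was taken from the lymphocyte-like nuclei, scaled by the summed reference genes, and in the same way from the hepatocyte-like nuclei. The lymphocyte-like source also held macrophage markers, at 255, 913 and 773 CPM in ND, STZ-HFHC 1 and STZ-HFHC 2. Macrophage-like nuclei held 1358, 4560 and 2757 CPM of them. The part of macrophage RNA in the Apoe of this source was not tested. A gene was called when it was at least 2-fold over both expectations, with both intervals above 1, in both STZ-HFHC mice.

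Over the lymphocyte-based expectation, Apoe in macrophage-like nuclei was at 1.11 (1.01–1.23) in ND, 1.63 (1.47–1.80) in the first and 1.44 (1.30–1.59) in the second STZ-HFHC mouse. Over the hepatocyte-based expectation it was at 1.14 (1.06–1.24), 4.2 (4.01–4.4) and 2.59 (2.45–2.74), respectively. The smaller ratio of each mouse averaged 1.53 ± 0.13 (SD, n = 2), so Apoe exceeded both expectations beyond counting error and was not called at 2-fold. Single reference genes treated in the same way reached 1.40, 1.23 and 1.43 over the lymphocyte-based expectation. Apoe was above that range in both STZ-HFHC mice, by little in STZ-HFHC 2, and within it in ND. Apoa5 in macrophage-like nuclei of STZ-HFHC 1 also exceeded both expectations, at 1.57 (1.29–1.93) over the lymphocyte-based and 1.23 (1.13–1.33) over the hepatocyte-based one. The former value too was above the range of the reference genes. In STZ-HFHC 2, Apoa5 was at 0.997 and 0.885.

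A mix of the hepatocyte-like and mitochondria-led profiles of each library was also fitted to 25 genes of each class, an alternative chosen after seeing the data. Apoe in macrophage-like nuclei was then at 0.959 (0.889–1.03) times the expected level in ND, 1.72 (1.66–1.79) in the first and 1.36 (1.29–1.43) in the second STZ-HFHC mouse. When each of the 25 genes was left out of the fit in turn, the highest of them was at 1.22, 1.24 and 1.27. The main hepatocyte members stayed nearer to 1 in the macrophage-like nuclei of the STZ-HFHC mice. Apoa1 was at 1.12 and 1.05, Apoa2 at 1.07 and 1.06 and Apob at 0.956 and 0.973. Apoa4 was at 0.909 and 0.783 and Apoa5 at 1.12 and 0.892 there. In macrophage-like nuclei of ND, Apoa4 at 1.38 (0.971–1.90) and Apom at 1.67 (0.954–2.71) were above the highest left-out gene. Apoe was at 0.975 and 1.14 in T or NK cell-like nuclei of the STZ-HFHC mice and 1.27 and 1.12 in B cell-like nuclei. These values of Apoe lay within the range of the left-out genes in the same nuclei.

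In the other classes the result for Apoe depended on the source. Endothelial-like nuclei were at 1.05, 0.899 and 1.06 over the lymphocyte-based expectation, 1.08, 2.32 and 1.91 over the hepatocyte-based one and 0.892, 0.961 and 0.896 by the mix, in ND, STZ-HFHC 1 and STZ-HFHC 2. Stellate-like nuclei were at 1.15, 1.52 and 1.39 over the lymphocyte-based expectation, 1.18, 3.91 and 2.5 over the hepatocyte-based one and 0.879, 1.10 and 0.975 by the mix. Cholangiocyte-like nuclei, from the epithelium of bile ducts, were at 1.62, 1.90 and 1.5 over the lymphocyte-based expectation, 1.66, 4.90 and 2.70 over the hepatocyte-based one and 0.967, 1.2 and 1.07 by the mix. Monocyte-like nuclei were at 1.48, 1.68 and 1.29 over the first, 1.52, 4.35 and 2.32 over the second and 0.771, 1.39 and 1.07 by the mix. Macrophage-like nuclei had the highest ratio by the mix in both STZ-HFHC mice, whereas cholangiocyte-like nuclei had the highest over either single source in these mice. Apoa2 was also above the lymphocyte-based expectation in the STZ-HFHC mice, at 1.32 and 1.37 in stellate-like and 1.63 and 1.44 in cholangiocyte-like nuclei. It was at 1.28 and 1.38 in monocyte-like and at 0.879 and 1.06 in endothelial-like nuclei, so such ratios were not particular to Apoe. Over this expectation, single reference genes reached 1.23 and 1.42 in stellate-like nuclei of these mice. They reached 1.78 and 1.71 in cholangiocyte-like and 1.90 and 1.44 in monocyte-like nuclei. Apoe was above that range in stellate- and cholangiocyte-like nuclei of STZ-HFHC 1 only. Apoa2 was above it in stellate-like nuclei of STZ-HFHC 1 only.

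In 5 classes, macrophage-, monocyte-, endothelial-, stellate- and cholangiocyte-like nuclei, 0 of the 9 genes were called above free RNA in both STZ-HFHC mice. Among all genes with at least 50 UMIs in the class, the same rule called 5.55% in macrophage-, 14.2% in monocyte-, 3.7% in endothelial-, 8.79% in stellate- and 6.05% in cholangiocyte-like nuclei. Apom met the limit in monocyte-like nuclei of STZ-HFHC 2 alone, on 9 UMIs, at 4.18 (1.17–18.6) times the lymphocyte-based expectation.

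**Figure D4:**
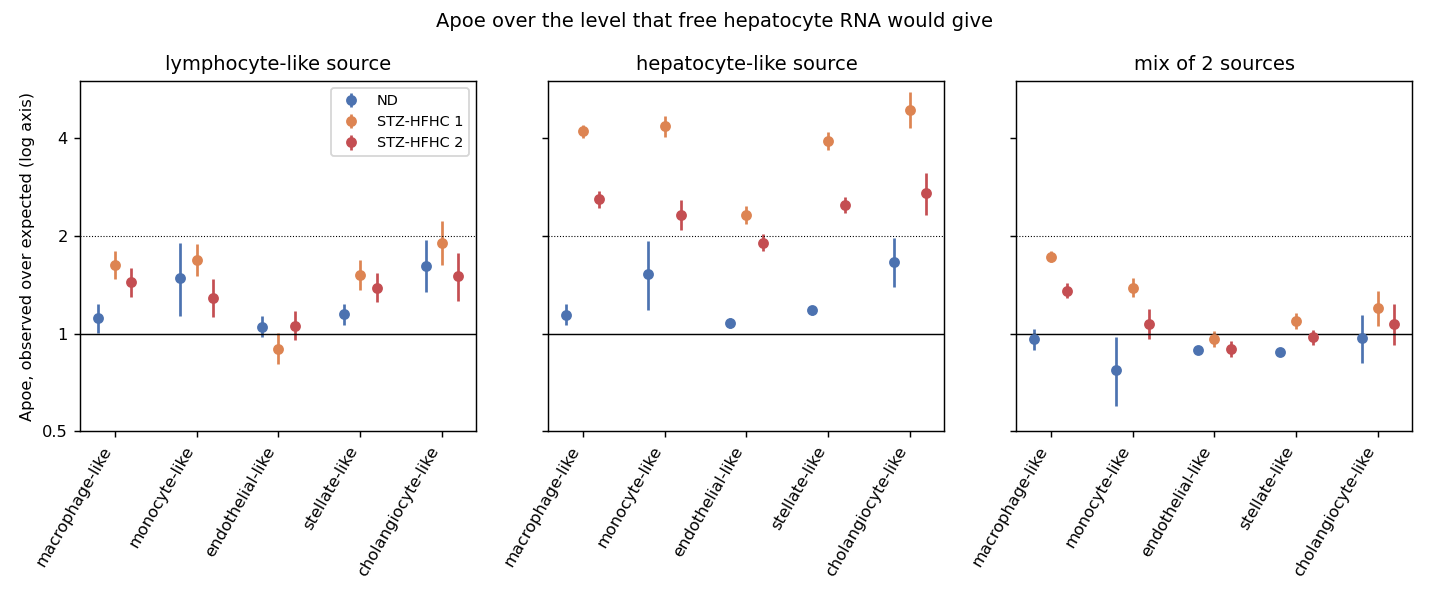
Apoe observed over the level that free hepatocyte RNA would give (log axis) in 5 classes, with lymphocyte-like nuclei (left), hepatocyte-like nuclei (middle) or the mix of hepatocyte-like and mitochondria-led profiles (right) as the source; points are libraries, bars 95% counting intervals and dotted lines the 2-fold limit. Macrophage-like nuclei lie at 1.63 and 1.44 in the STZ-HFHC mice on the left and at 1.72 and 1.36 on the right.

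Hepatocytes near the portal vein and near the central vein of the liver lobule differ in metabolism. Within each library, hepatocyte-like nuclei with at least 5 UMIs of zone markers were ordered by the pericentral share of these UMIs, and split into 3 parts of equal size, of which the most pericentral was compared with the most periportal, of 1465, 955 and 1554 nuclei each. Apoe was higher in the pericentral part of the order in every library. It was at 568 CPM in the periportal and 700.4 CPM in the pericentral part of ND, a ratio of 1.23 (1.18–1.29), and the ratio was 1.29 (1.22–1.36) in the first and 1.47 (1.39–1.55) in the second STZ-HFHC mouse. Cluster 15, led by the pericentral genes Glul and Lgr5 among others, held 791 CPM of Apoe in ND beside 594 CPM in cluster 1. Cluster 14, led by the same genes, held 355 and 365 CPM in the STZ-HFHC mice beside 265 and 204 CPM in cluster 2.

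Apoa1 leaned to the periportal part in every library, with pericentral over periportal ratios of 0.803 (0.766–0.842), 0.816 (0.750–0.888) and 0.732 (0.678–0.790) in ND, STZ-HFHC 1 and STZ-HFHC 2. Apob and Apoa5 leaned the same way, with ratios of 0.831, 0.921 and 0.891 for Apob and 0.900, 0.746 and 0.701 for Apoa5, and Apoc3 had ratios of 0.913, 0.773 and 0.767. Apoa2 was even in ND, at 1.03 (0.986–1.07), and pericentral in the STZ-HFHC mice, at 1.21 (1.13–1.29) and 1.42 (1.34–1.52). Apoa4 was periportal in ND, at 0.653 (0.523–0.814), and at 0.944 (0.817–1.09) and 1.35 (1.17–1.54) in the STZ-HFHC mice. Apoc2 had ratios of 0.836, 1.08 and 1.33, and Apom 0.851, 0.921 and 2.30, with 18 periportal and 38 pericentral UMIs behind the last value. A log2 ratio of at least 1 in size in all 3 libraries was reached by 0 of the 9 genes in either direction, beside 1.38% of 13878 genes in the pericentral and 0.757% in the periportal direction. The median log2 ratio of the 9 genes was −0.23, −0.12 and 0.41, beside 0.03, −0.00390 and 0.07 over all genes. Over the reference genes it was −0.28, −0.13 and −0.28, so in ND and STZ-HFHC 1 the 9 genes lay close to other genes for secreted liver proteins. Of the ordered nuclei, 1020, 807 and 1418 had a share within 0.05 of a cut, so the parts are ranges and not cell types.

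**Figure D5:**
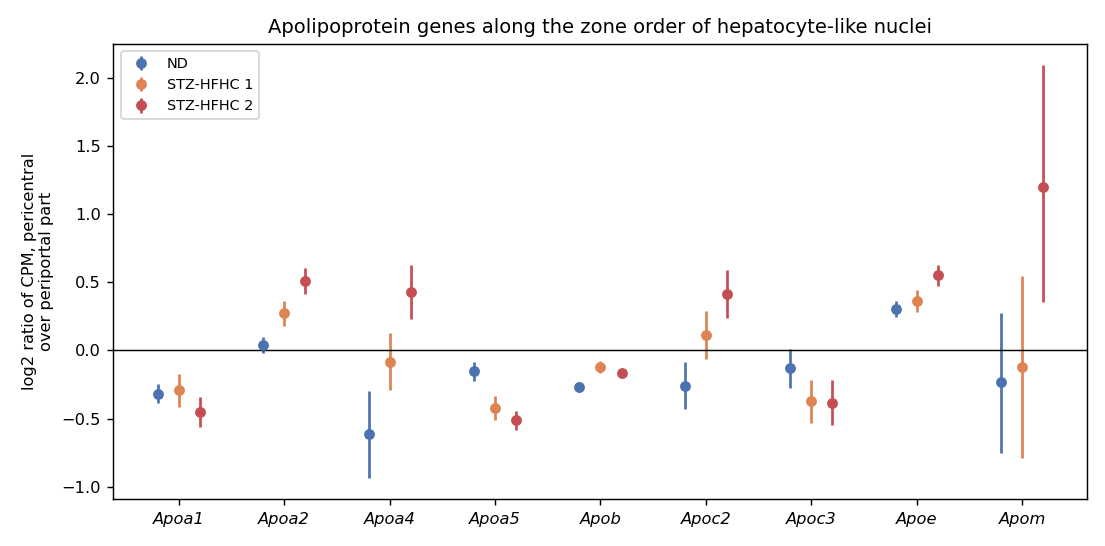
Log2 ratio of CPM between the pericentral and the periportal part of hepatocyte-like nuclei for each gene, with 1 point per library and exact 95% counting intervals as bars. Apoe lies above 0, and Apoa1, Apoa5, Apob and Apoc3 lie below 0, in each of the 3 libraries.

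Other genes of lipoprotein metabolism came from 6 lists with 55 genes, of which 52 had enough UMIs in hepatocyte-like nuclei. By the rule of size 7 were higher and 6 lower, beside 8.56% higher and 4.82% lower among all 14743 genes with enough UMIs. Their median log2 ratio was −0.40, beside 0.10 over all these genes. The shares over all genes are the same for each list below. Among the other apolipoproteins, 0 of 7 were higher and 2 lower, Apof, an inhibitor of lipid transfer between particles (35.6, 10.7 and 11.3 CPM in ND, STZ-HFHC 1 and STZ-HFHC 2), and Apon (26.8, 10.4 and 7.27 CPM). Apoc1, the neighbour of Apoe, was not called, at 272, 220.5 and 155 CPM. Of 9 genes for particle assembly and Apob editing 0 were called, and Mttp, which loads lipid onto Apob, was at 229, 169 and 160.0 CPM.

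Among 8 genes of HDL and its remodelling, 2 were higher and 2 lower. Abca1, which loads cholesterol onto Apoa1, was at 272, 623 and 549 CPM, a log2 ratio of 1.11 ± 0.13 (SD, n = 2), opposite in sign to that of Apoa1. Abcg1, another exporter of cholesterol, was higher at 2.20, 8.05 and 6.85 CPM. Lipc, hepatic lipase, was lower at 1071, 314 and 327 CPM, and so was Pon1, an esterase carried on HDL, at 245, 64.5 and 67.9 CPM.

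Of the receptors and proteins of uptake, 2 of 8 were higher and 1 was lower. Vldlr, a receptor for Apoe, was higher at 2.06, 11.8 and 6.16 CPM, and so was Sorl1, a sorting receptor, at 1.51, 5.85 and 4.63 CPM. Of 6 genes of lipolysis, Lpl, lipoprotein lipase itself, was higher at 2.20, 28.9 and 18.5 CPM, and Angptl8, an inhibitor of it, was lower at 90.0, 28.3 and 16.1 CPM. Macrophage markers summed to 180.3, 242 and 204 CPM in hepatocyte-like nuclei of ND, STZ-HFHC 1 and STZ-HFHC 2, T or NK cell markers to 52.2, 289 and 367 CPM, endothelial markers to 297, 248 and 279 CPM and stellate or fibroblast markers to 84.1, 122 and 89.5 CPM. Their part in the levels of Lpl, Vldlr and Abcg1 was not tested. Themis, on the list of T or NK cell markers, was among the leading genes of hepatocyte-like cluster 3. The T or NK cell sum is therefore no measure of T cell RNA alone, and the part of Themis in it was not tested.

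Among 14 regulators, 2 were higher and 0 lower. Srebf1, a driver of fatty acid synthesis, was at 12.6, 51.5 and 68.5 CPM, and Foxo1, which insulin restrains, at 402, 1000.2 and 891 CPM. Ppara, the sensor of fatty acids, was not called, at 1686, 1964 and 1182 CPM, nor was Nr1h4, the bile acid receptor, at 1113, 878 and 783 CPM. Hnf4a, named here for its motif after its values were seen, was at 373, 308 and 369 CPM and was not called.

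The genes most like each member were sought among 11476 genes by Pearson's r of log2(CPM + 1) over 27 sums of a class in a library. These points share libraries, depth and free RNA, so r is a description. Apoe was most like Apoc3 (r = 0.97), Apoc1 (0.96) and Apoa2 (0.95), and Apoa2 was most like Apoc3 (0.96). Apoa1 was most like Serpina1b (0.97), Fgb (0.97) and Fgg (0.96), which encode plasma proteins of the liver. Apob was most like Azgp1 (0.99) and Apoa5 most like Ormdl3 (0.96). Apoa4 was most like Gpx1 (0.92), Apoc2 most like Gapdh (0.92) and Apom most like Gamt (0.92).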

How the data were processed

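Nuclei of frozen mouse liver were measured with 10x 3′ chemistry, 1 library per mouse. The authors deposited raw UMI counts per gene and barcode, made with Cell Ranger 7.0.1 on mm10, for 30989 barcodes. Whether intronic reads were counted was not given in the sources used here. The study states a cell number equal to all these barcodes, whereas its stated filter (200 to 5000 genes, at most 5% mitochondrial UMIs) left 28336, which were used. In all, 77617520, 73942732 and 72934861 UMIs were deposited for ND, STZ-HFHC 1 and STZ-HFHC 2.

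Nuclei were clustered with Scanpy 1.11.5 and leidenalg 0.10.2 (2000 variable genes, 30 components, 15 neighbours, resolution 1, Python 3.11.15), giving 21 clusters. The 9 members and the 55 other lipoprotein genes were left out before the variable genes were chosen. Clusters were named from marker lists. Clusters 7, 18 and 20 had markers of different cell types, were left unnamed and are in no class. Cluster 7, with endothelial and macrophage markers, held 40, 769 and 926 nuclei of ND, STZ-HFHC 1 and STZ-HFHC 2. These nuclei are therefore not in the macrophage-like results. The naming rule for hepatocyte-like clusters was revised after the clusters were seen, since too few of their markers were raised over the median of the other clusters. Differences from the study's cell types may therefore come from the rebuilt names. Scrublet called 1, 0 and 0 doublets and so did not work, and leaving out the highest 8% of scores was an alternative. Counts were summed per class and library, with 0.5 added to each count in ratios. Intervals (SciPy 1.17.1) were exact Poisson, conditional binomial or Clopper-Pearson at 95%, and cover counting error only. With 1 ND library no test was made, and SDs are over 2 mice. Calculations were tested on simulated data. All 9 members were named, and other lipoprotein genes when called or among the 4 of their list with the most UMIs. A result for 1 called gene of the uptake list is not reported here. Identifiers of 32158 of 32285 genes matched the annotation. The members and the lists were chosen with earlier results of these data known. Alternatives changed the clustering, barcodes, doublets, scaling, filter, source of free RNA and libraries used.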

Additional observations from a re-analysis of the deposited data

Results flagged for a closer look

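Apoc2, the activator of lipoprotein lipase, had values of different sign by zone and by set of nuclei. Its log2 ratio of the pericentral to the periportal part of hepatocyte-like nuclei was −0.26 in ND, but 0.11 in the first and 0.41 in the second STZ-HFHC mouse, so the ND mouse and both STZ-HFHC mice had opposite signs. As a ratio, it was 0.836 (0.742–0.943) in ND, and 1.08 (0.956–1.22) in the first STZ-HFHC mouse, an interval that spans 1. Against ND, its log2 ratios in hepatocyte-like nuclei were −0.37 and −0.81 for the first and the second STZ-HFHC mouse, but 1.13 and 0.19 in the mitochondria-led clusters of the same mice. There the interval of the second STZ-HFHC mouse, 150.3 CPM (133–169), overlapped that of ND, 132 CPM (121–144). Neither difference was tested.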

How the results depend on the processing

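The median log2 ratio of the 9 genes in hepatocyte-like nuclei, −0.93, ran from −1.17 to −1.07 when either STZ-HFHC mouse was left out. It was −1.03 when centred on the median of all genes. Under alternatives chosen after seeing the data it was 0.22 when centred on the median of the reference genes, a change of sign, and −1.27 when the mitochondria-led clusters were added to the class. The number of the 9 genes past the fold, 4, was 5 to 6 with 1 STZ-HFHC mouse, since both mice then no longer had to pass, and 3 at a clustering resolution of 0.5 or with the mean CPM per nucleus, where Apom was not called (log2 ratios of −0.94 and −0.99 in the first STZ-HFHC mouse). Apoe in macrophage-like nuclei over free RNA, 1.53, became 1.89 with the highest doublet scores removed, and ran from 1.44 to 1.63 with either mouse left out. The median zone log2 ratio, 0.02, ran from −0.17 to 0.090, with the negative value when STZ-HFHC 2 was left out. The causes of these shifts were not tested. Of the main results recomputed under an alternative, 51 kept their direction and size, 5 moved and 2 changed sign. Of the ratios of single members to ND, 95 stayed within the spread and 4 moved with no change of sign. The ND library could not be left out, since no other stands for its group. No paired analysis was possible because ND is a single library from a different mouse. Depth limits Apom most, with 84 UMIs in hepatocyte-like nuclei of STZ-HFHC 2.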
